A study of Mus musculus with 18 samples.

Results

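Krtdap, Sbsn, Dmkn, Calm4, Casp14, Tgm1, Tgm3, Pla2g2f and Asprv1 are genes of the last steps of epidermal differentiation that lie outside the epidermal differentiation complex of mouse chromosome 3. These 9 genes, of 55536 in the count table, were chosen by their counts in EGF medium, where several of them reached 0. The EGF-medium levels set beside RW levels are therefore a description of how the list was made, with no test.

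Late epidermal differentiation is the path by which a keratinocyte leaves the basal layer, fills with keratin filaments and dies as a flat cornified cell. Transglutaminases cross-link a protein envelope under its membrane, proteases such as caspase-14 and Asprv1 process filaggrin, and secreted enzymes and lipids build the barrier between cells. The mammary gland arises from the embryonic epidermis, but its ducts are lined by luminal and basal cells and carry no cornified layer.

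The libraries were made from mammary organoids of C57BL/6 mice aged 6 to 7 weeks, grown in matrigel in DMEM/F12 with an insulin, transferrin and selenium supplement. Wild-type (WT) and RasGRP1-/- (KO) organoids were each kept for 5 days with 1 of 3 additions. EGF medium held 2.5 nM EGF, RW medium held 0.1 nM NGS-Wnt (a Wnt agonist) and 8.3 nM Rspo2 (an R-spondin, which strengthens Wnt signals), and ERW medium held all of them at the same doses. Each of the 6 groups had 3 libraries, numbered 1 to 3, and the labels give that number as the batch. RasGRP1 is a Ras activator, and the labels give its loss as a -/- genotype with no cell type or Cre line named. The labels do not say how many animals stood behind a library, so p-values measure the spread between these libraries.

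The libraries held 24290097 to 31269899 counts. Rasgrp1 itself had 145 counts in the 9 WT libraries (6 to 28 each) and 25 in the 9 KO libraries (0 to 9 each), a low level in both. The labelled cell type is mammary epithelium. All 12 mammary epithelial markers examined (Epcam, Cdh1, Krt5, Krt14, Krt8, Krt18 and 6 others) were detected in every group. Their summed level was 10700 to 13100 CPM in WT RW and 8510 to 9620 CPM in WT EGF, where CPM scales counts to the TMM-adjusted library size. The markers did not move together. From WT RW to WT EGF, mean Krt5 went from 3150 to 1420 CPM and Krt14 from 2990 to 1450. Krt19, Cdh1 and Elf5 were also lower in WT EGF, and all the other markers were higher. In bulk RNA, fewer cells of a type and less RNA per cell cannot be told apart, and this holds for every level below.

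Sbsn, Dmkn and Krtdap stand side by side, in the same orientation, on 39.6 kb of chromosome 7. In GRCm38, Sbsn (ENSMUSG00000046056) spans chr7:30751471-30756134, Dmkn (ENSMUSG00000060962) chr7:30763756-30781063 and Krtdap (ENSMUSG00000074199) chr7:30787896-30791097, all on the plus strand. The other 6 are scattered. Calm4 (ENSMUSG00000033765), which has a single exon, lies at chr13:3837757-3838673 on the plus strand. Casp14 (ENSMUSG00000005355) lies at chr10:78711991-78718294 and Tgm1 (ENSMUSG00000022218) at chr14:55700009-55713492, both on the minus strand. Tgm3 (ENSMUSG00000027401) lies at chr2:130012349-130050399 on the plus strand, 12.7 Mb from Rasgrp1. Pla2g2f (ENSMUSG00000028749) lies at chr4:138750533-138757626 on the minus strand, and Asprv1 (ENSMUSG00000033508), also with a single exon, at chr6:86628164-86629710 on the plus strand. Of the exon bases of Sbsn, 279 are shared with Tmem147os, and 182 of those of Tgm1 with Gm49067. Whether reads were counted by strand is not given in the sources used here, so reads in those bases cannot be assigned to 1 gene.

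Only some promoters are shown, and those of Tgm3 and Casp14, which also hold motif matches, are left out. Krtdap, Calm4 and Pla2g2f are printed because each had 10 or fewer counts over the EGF-medium group of either genotype. Dmkn is printed because it shares a motif with Krtdap. Each printed window is the 250 bases before an annotated start, from RefSeq's GRCm38.p6 table, which matched all 9 genes with 12 windows. Capitals mark matches to 5 motifs searched on both strands: AP-1 (TGAGTCA), the core promoter box (TATAAA), Klf (CACACCC, or GGGTGTG on the other strand), C/EBP (TTGCNNCAA) and Grainyhead-like (AACCNGTT). No capitalised matches overlap.
Krtdap, chr7:30787655-30787904, plus strand: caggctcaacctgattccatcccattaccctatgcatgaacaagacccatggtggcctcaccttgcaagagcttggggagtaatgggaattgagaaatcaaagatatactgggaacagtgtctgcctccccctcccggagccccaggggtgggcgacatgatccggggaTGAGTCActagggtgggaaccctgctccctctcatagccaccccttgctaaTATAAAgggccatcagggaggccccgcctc
Dmkn, first start, chr7:30763506-30763755, plus strand: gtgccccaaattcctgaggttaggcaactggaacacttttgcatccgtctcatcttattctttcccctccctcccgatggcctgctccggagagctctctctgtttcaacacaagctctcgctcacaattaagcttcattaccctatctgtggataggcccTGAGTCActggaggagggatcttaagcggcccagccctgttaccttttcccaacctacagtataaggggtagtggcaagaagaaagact
Dmkn, internal start, chr7:30776155-30776404, plus strand: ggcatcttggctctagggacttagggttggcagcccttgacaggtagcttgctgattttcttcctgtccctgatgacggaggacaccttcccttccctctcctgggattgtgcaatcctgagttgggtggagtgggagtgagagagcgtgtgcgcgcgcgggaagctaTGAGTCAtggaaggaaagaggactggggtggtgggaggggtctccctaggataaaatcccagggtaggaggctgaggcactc
Calm4, chr13:3837507-3837756, plus strand: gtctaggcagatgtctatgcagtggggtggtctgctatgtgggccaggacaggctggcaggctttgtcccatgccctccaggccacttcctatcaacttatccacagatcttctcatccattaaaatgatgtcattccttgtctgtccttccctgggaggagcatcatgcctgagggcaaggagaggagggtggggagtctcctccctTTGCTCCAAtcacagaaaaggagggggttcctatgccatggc
Pla2g2f, chr4:138757599-138757848, minus strand: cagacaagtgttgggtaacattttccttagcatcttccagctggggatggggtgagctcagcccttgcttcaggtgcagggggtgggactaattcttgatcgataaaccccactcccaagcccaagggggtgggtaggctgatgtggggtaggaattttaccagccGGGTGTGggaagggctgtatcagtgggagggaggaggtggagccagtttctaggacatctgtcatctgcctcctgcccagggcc

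The AP-1 letters stood 81 bases before the Krtdap start and 89 and 82 bases before the 2 Dmkn starts printed. They were present for 2 of the 9 genes and in 4 of their 12 windows, 2 of the Dmkn windows nearly coinciding. Of all 32851 promoter windows in the table, 4.46% held them. TATAAA stood 30 bases before the Krtdap start and 28 before that of Tgm3, in 2 of the 12 windows, and 12.4% of all windows held it. The Klf letters were present for Pla2g2f, Casp14 and Tgm3, in 3 of the 12 windows, against 6.93% of all windows. The C/EBP letters were present for Calm4, in 1 of the 12, against 1.74%. No window of the 9 genes held the Grainyhead-like letters, which 1.79% of all windows held. A match describes these letters only.

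Per length, the 3 secreted proteins of the chromosome 7 stretch had the highest levels of the 9 in RW and ERW media. Dmkn encodes dermokine, a secreted protein of the granular layer, and Sbsn encodes suprabasin, a secreted suprabasal protein. In WT RW the 3 libraries held 2600, 5206 and 4539 Dmkn counts, WT ERW held 1138, 2371 and 1870, and WT EGF held 457, 275 and 314. In KO the same media gave 2430, 2937 and 4421, then 875, 1737 and 2503, then 250, 318 and 222. RW was high, ERW intermediate and EGF low in both genotypes, and in CPM none of the media overlapped. For Sbsn, WT RW held 4589, 3481 and 4794 counts, WT ERW 3077, 2465 and 2414, and WT EGF 1205, 1603 and 1463. The KO values were 3260, 3211 and 4061 in RW, 2351, 2186 and 2001 in ERW, and 1033, 1341 and 1377 in EGF. The 3 media did not overlap for Sbsn within either genotype, and it kept at least 1033 counts in each library of every group.

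Krtdap, which encodes a small secreted protein of differentiating keratinocytes, almost vanished in EGF medium. It had 186, 1182 and 1010 counts in WT RW, 78, 334 and 241 in WT ERW, and 10, 0 and 0 in WT EGF. In KO it had 191, 497 and 628 counts in RW, 44, 180 and 329 in ERW, and 3, 0 and 5 in EGF. Library 1 of RW was the lowest of its group in both genotypes and lay within the range of ERW, so the RW and ERW groups overlapped.

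Calm4, a calcium-binding calmodulin relative of differentiating keratinocytes, and Pla2g2f, a secreted phospholipase A2 of the suprabasal epidermis, had the steepest levels. Calm4 had 131, 807 and 879 counts in WT RW, 37, 79 and 73 in WT ERW, and 0 in all 3 WT EGF libraries. In KO it had 169, 583 and 311 in RW, 10, 14 and 63 in ERW, and 0, 0 and 2 in EGF. None of the media overlapped for Calm4 in either genotype. Pla2g2f had 106, 425 and 410 counts in WT RW, 9, 27 and 43 in WT ERW, and 112, 196 and 210 in KO RW against 12, 16 and 26 in KO ERW. It had no count in any of the 6 EGF-medium libraries. Of the 17092 genes tested, 0.293% had no count in all 3 WT EGF libraries and 0.304% in all 3 KO EGF libraries.

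The proteases differed in what remained with EGF. Casp14, a caspase of cornification and not of classical cell death, had 145, 404 and 399 counts in WT RW, 7, 45 and 37 in WT ERW, and 14, 55 and 14 in WT EGF. In KO it had 213, 348 and 142 in RW, 23, 21 and 20 in ERW, and 7, 6 and 12 in EGF. Casp14 was as low in WT ERW as in WT EGF, and those groups overlapped, whereas KO ERW lay above KO EGF. Asprv1, an aspartic protease that cleaves profilaggrin, had 546, 1232 and 1316 counts in WT RW, 289, 289 and 539 in WT ERW, and 114, 100 and 169 in WT EGF. Its KO counts were 371, 452 and 839 in RW, 205, 294 and 488 in ERW, and 72, 144 and 240 in EGF. Asprv1 stepped down from RW through ERW to EGF in group means, with RW and ERW overlapping in both genotypes once scaled to CPM.

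The 2 transglutaminases went separate ways. Tgm1, the membrane-bound enzyme of the keratinocyte envelope, had 347, 329 and 487 counts in WT RW, 426, 176 and 321 in WT ERW, and 174, 182 and 289 in WT EGF. In KO it had 407, 220 and 309 in RW, 404, 190 and 333 in ERW, and 196, 207 and 244 in EGF. ERW spanned the range of RW in KO, and of the 9 genes Tgm1 varied least between media. Tgm3, the soluble epidermal transglutaminase, was the scarcest of the 9 per length in RW and ERW. It had 13, 61 and 104 counts in WT RW, 0, 0 and 3 in WT ERW, and 3, 3 and 0 in WT EGF, and in KO 25, 40 and 36, then 17, 4 and 17, then 13, 13 and 15. WT without EGF stood far above both WT media with EGF, whereas in KO the 3 media lay closer together.

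**Figure D1:**
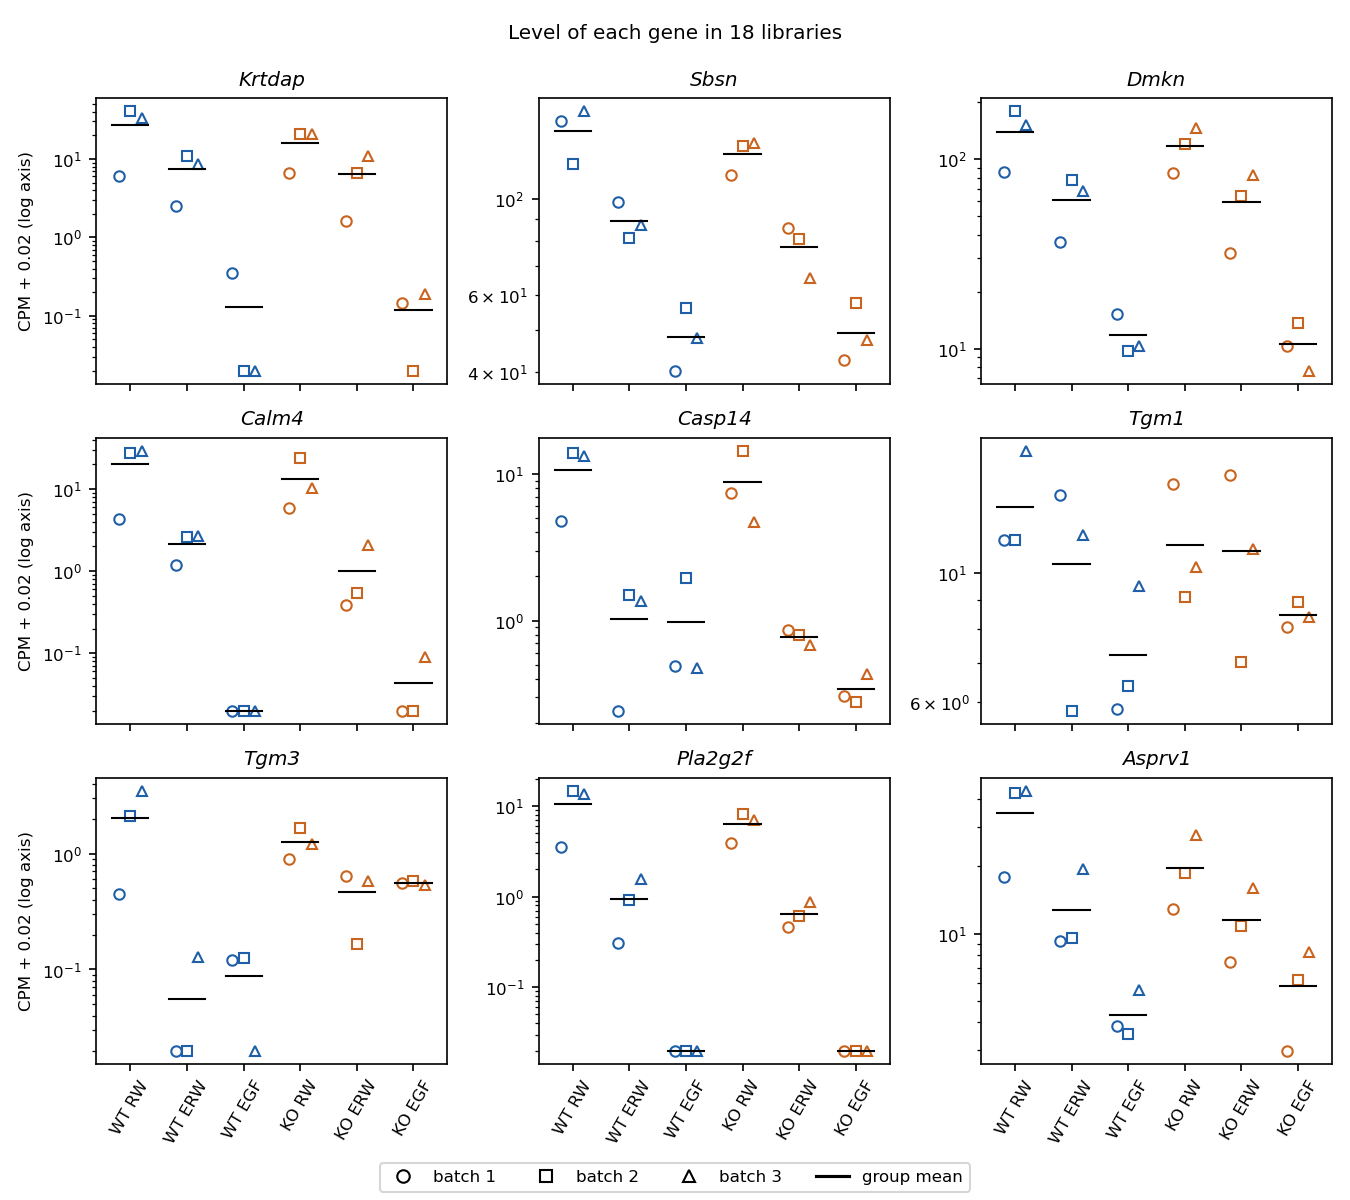
Level of each of the 9 genes in every library, as CPM plus 0.02 on a log axis that differs between panels, by group; symbols mark the batch, blue is WT, orange is KO (RasGRP1-/-), and the bar is the group mean of 3 libraries. Calm4 and Pla2g2f sit at the bottom of the axis in WT EGF, while Sbsn and Tgm1 stay within the same order of magnitude in all 6 groups.

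Set per kilobase of exon, the order of levels in WT RW was led by Dmkn at 63.2 ± 22.1 CPM per kb (SD, n = 3), then Sbsn at 39.5 ± 5.64 and Krtdap at 39.5 ± 26.95. Asprv1 followed at 22.4 ± 9.41 and Calm4 at 22.3 ± 15.3. Casp14, Pla2g2f and Tgm1 lay at 4.45 ± 2.14, 4.30 ± 2.51 and 4.10 ± 0.876, and Tgm3 came last at 0.483 ± 0.367. Of neighbours in this order, Dmkn and Sbsn, Calm4 and Casp14, and Tgm1 and Tgm3 differed by more than the larger of their SDs, and the other 5 pairs did not. In WT EGF the order was Sbsn at 13.3 ± 2.20, Dmkn at 5.35 ± 1.41, Asprv1 at 2.77 ± 0.707 and Tgm1 at 2.28 ± 0.621 CPM per kb. The other 5 were each under 0.5 CPM per kb there.

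As a description, the levels in EGF medium were lower than in RW for all 9 genes, with groups that did not overlap in either genotype. Over all genes tested, 10.9% lay below in the same way in WT and 7.71% in KO. From counts pooled over a group, Calm4 was at least 601-fold lower and Pla2g2f at least 312-fold lower in WT EGF, against a floor of 3 counts over the group. Krtdap was 236-fold lower there, Tgm3 29.5-fold, Dmkn 11.7-fold, Casp14 11.3-fold and Asprv1 8.02-fold, while Sbsn was 2.99-fold and Tgm1 1.79-fold lower. In KO, Pla2g2f was at least 159-fold lower, and the 2 remaining Calm4 counts gave 489-fold lower (95% counting interval 135 to 4047). Krtdap was 152-fold lower, Casp14 25.9-fold, Dmkn 11.4-fold, Asprv1 3.36-fold, Sbsn 2.59-fold, Tgm3 2.27-fold and Tgm1 1.33-fold. Counting intervals and floors cover counting error only. Apart from Calm4 and Pla2g2f, which were at or under the floor, Casp14 alone kept a smaller share of its RW level in KO than in WT. Asprv1, Tgm3, Tgm1, Sbsn, Dmkn and Krtdap kept a larger share in KO. Those shares rest on EGF medium and were not tested.

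The comparison of ERW with RW asked what EGF adds while the Wnt agonist and Rspo2 are present. Its log2 changes leave out the EGF-medium means but share the RW libraries with the comparison that chose the genes. The spread behind its standard errors, p-values and calls was estimated over all 18 libraries, EGF medium included. All 9 genes were lower in ERW in group means in both genotypes. In WT, Casp14, Pla2g2f, Calm4, Tgm3 and Sbsn fell, and Krtdap, Dmkn, Asprv1 and Tgm1 were not called. In KO, Casp14, Pla2g2f, Calm4 and Sbsn fell and the other 5 were not called. A call is an adjusted p under 0.05 in edgeR's quasi-likelihood test over all 17092 genes, and 1.13% of them were called lower in WT and 1.36% in KO. The median log2 change was -1.86 over the 9 genes in WT and -1.33 in KO, against 0.00 over all genes tested in both.

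Calm4, Casp14 and Pla2g2f kept 7.35% to 10.5% of their mean RW level in ERW. Casp14 went from 10.7 ± 5.12 to 1.013 ± 0.688 CPM (SD, n = 3) in WT and from 8.81 ± 4.97 to 0.756 ± 0.0911 in KO. Its log2 change was -3.39 ± 0.68 (SE) in WT and -3.54 ± 0.69 in KO, at edgeR adjusted p = 0.0145 and 0.0124. Pla2g2f went from 10.6 ± 6.18 to 0.909 ± 0.633 CPM in WT and from 6.30 ± 2.16 to 0.627 ± 0.212 in KO. That is a log2 change of -3.54 ± 0.66 (edgeR adjusted p = 0.0164) and -3.32 ± 0.66 (0.023). Calm4 went from 20.4 ± 14.0 to 2.14 ± 0.829 CPM in WT and from 13.4 ± 9.46 to 0.984 ± 0.945 in KO, a log2 change of -3.26 ± 0.79 (edgeR adjusted p = 0.0451) and -3.75 ± 0.82 (0.0283). None of these 3 genes overlapped between ERW and RW, in either genotype. In all, 6 of the 9 did not overlap in WT and 6 in KO, where 9.25% and 7.8% of all genes tested lay below without overlap.

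Sbsn changed little in size but with a narrow spread. It went from 143 ± 20.5 to 88.8 ± 8.70 CPM in WT and from 127 ± 11.4 to 77.3 ± 10.3 in KO, a log2 change of -0.69 ± 0.15 (edgeR adjusted p = 0.025) and -0.71 ± 0.15 (0.0215). Its neighbours Dmkn and Krtdap moved by more but varied more. Dmkn stood at -1.19 ± 0.37 in WT (edgeR adjusted p = 0.119, and 0.0455 with the replicate block) and -0.98 ± 0.37 in KO (0.203, and 0.0782 with the block). Krtdap stood at -1.86 ± 0.82 (edgeR adjusted p = 0.354) and -1.33 ± 0.81 (0.55), and was not called with the block either. The replicate block is the same fit with the labelled batch as a term.

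Asprv1 and the transglutaminases showed the least even picture. Asprv1 stood at -1.45 ± 0.44 in WT (edgeR adjusted p = 0.108) and -0.79 ± 0.43 in KO (0.474), and both passed with the replicate block, at 0.000178 and 0.0154. Tgm3 fell by 5.69 ± 1.15 on the log2 scale in WT (edgeR adjusted p = 0.0149), from 178 counts over the group to 3. That ratio is 59.2-fold with a 95% counting interval of 19.9 to 290, and the fitted value depends on the prior count. In KO, Tgm3 had 101 counts in RW and 38 in ERW, a log2 change of -1.47 ± 0.89 (edgeR adjusted p = 0.538). Tgm1 stood at -0.33 ± 0.32 in WT and -0.03 ± 0.32 in KO, at edgeR adjusted p = 0.861 and 0.989.

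**Figure D2:**
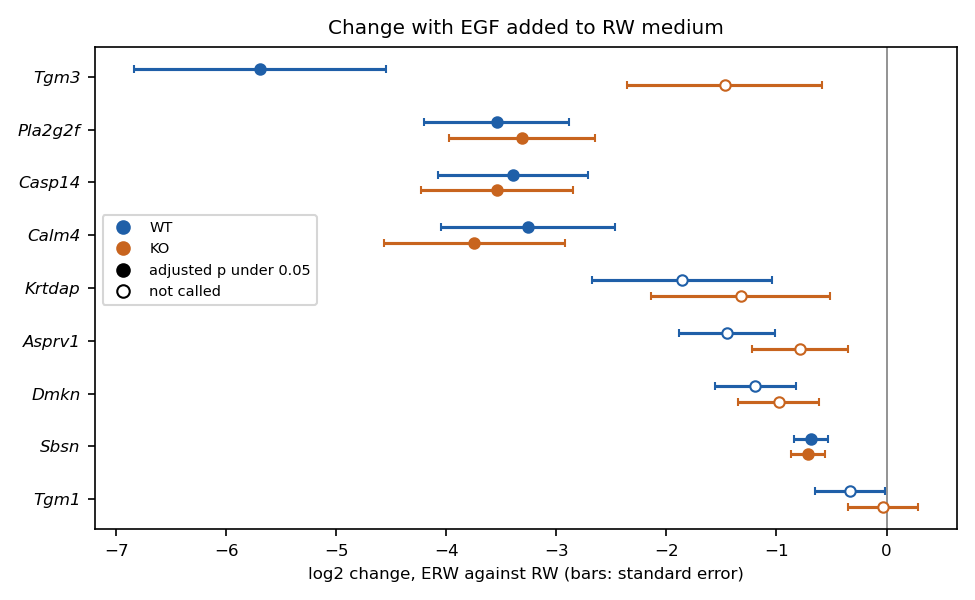
Log2 change of ERW against RW for each gene, with its standard error, in WT (blue) and KO (RasGRP1-/-, orange), n = 3 libraries a group; filled points passed an adjusted p under 0.05 in edgeR without the replicate block. Calm4, Casp14 and Pla2g2f lie below -3 in both genotypes, and Tgm1 lies next to 0.

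With the replicate block, 7 of the 9 genes fell in WT and 5 in KO, where 5.82% and 6.65% of all genes tested were called lower. Taken batch by batch, ERW was below RW in 26 of 27 comparisons of a gene in WT and in 25 of 27 in KO, Tgm1 supplying all 3 exceptions. Being lower in each of the 3 batches held for 8 of the 9 genes in both genotypes, and for 24% and 21.8% of all genes tested. Dmkn kept 42.6% to 44.8% of its RW level across the batches in WT, and Asprv1 57.7% to 58.3% in KO. Calm4 kept 27.5% in batch 1 of WT and 9.33% and 9.03% in batches 2 and 3. Tgm1 kept 51.0% to 120% in WT and 77.3% to 107% in KO, so its direction differed between batches.

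The calls without the block depended on single libraries. In WT the number of the 9 genes called, 5 with all libraries, was 4 without RW library 1 and 2 without RW library 2, RW library 3 or any 1 of the ERW libraries. The edgeR adjusted p over these 6 omissions ran from 0.0156 to 0.057 for Casp14, 0.0125 to 0.0643 for Tgm3, 0.00965 to 0.0599 for Pla2g2f, 0.0276 to 0.111 for Sbsn and 0.026 to 0.184 for Calm4. In KO the number, 4 with all libraries, was 4 without RW library 1, 0 without RW library 2, 3 without RW library 3, 2 without ERW library 1 or 2, and 1 without ERW library 3. The edgeR adjusted p ran from 0.00977 to 0.068 for Casp14, 0.038 to 0.0851 for Pla2g2f, 0.0317 to 0.111 for Calm4 and 0.0385 to 0.117 for Sbsn. The log2 changes of these genes kept their sign in each omission. Fitted on the 6 libraries of the comparison alone, none of the 9 was called in WT (8 were under an unadjusted p of 0.05 in the fit of all 18 libraries) and 2 in KO, and DESeq2 called 7 and 4.

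In ERW against EGF medium, again a description with no test because it uses the EGF libraries, the genes also parted. Without overlap, 6 of the 9 lay higher in ERW in each genotype, as did 10.5% of all genes tested in WT and 6.65% in KO. From group means, Krtdap was 66.4-fold higher in ERW in WT, Dmkn 5.17-fold, Asprv1 2.97-fold and Sbsn 1.85-fold, and Pla2g2f had 79 counts against 0. Casp14 was 1.06-fold and Tgm1 1.43-fold higher, with overlapping groups, and Tgm3 had 3 counts against 6. These ratios carry the choice of genes for low EGF-medium counts and support nothing further.

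The comparison of KO with WT asked what RasGRP1 changes within a medium. In RW all 9 genes had lower means in KO, with log2 changes from -0.81 (Asprv1) to -0.18 (Sbsn), and none was called by edgeR (adjusted p = 1 for each). By batch, KO RW was below WT RW in 19 of 27 comparisons of a gene, and only 2 of the 9 genes were lower in all 3 batches. The groups overlapped for all 9, and 2.12% of all genes tested lay below without overlap. None was under an unadjusted p of 0.05, DESeq2 called none, and edgeR called 0.0293% of all genes tested. In ERW medium edgeR and DESeq2 called none of the 9 either, edgeR called 0.0351% of all genes, and Tgm3 alone of the 9 was under an unadjusted p of 0.05. In EGF medium, whose libraries chose the genes, KO and WT are only described.

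Tgm3 had more counts in KO than in WT in both media with EGF, a difference that was not called in ERW and is only described in EGF medium. KO libraries held 4 to 17 counts in ERW against 0 to 3 in WT, and 13 to 15 in EGF against 0 to 3. Those ranges do not overlap, and 2.18% and 1.85% of all genes tested lay above without overlap in the same comparisons. The log2 change in ERW was 3.53 ± 1.13 (edgeR, unadjusted p = 0.00626, adjusted p = 1). Leaving out 1 library at a time, it ran from 2.97 to 6.67, the highest without WT ERW library 3, which holds all 3 WT counts. In RW, Tgm3 stood at -0.69 ± 0.85. The change with EGF added differed between the genotypes by 4.22 ± 1.41 for Tgm3 (edgeR unadjusted p = 0.00857, adjusted p = 1), and no gene of the 17092 was called in that test, with 125 under an unadjusted p of 0.05. The nearest tested genes on both sides, Stk35 and Snrpb, stood at 0.03 and 0.02 in ERW, and Tgm2 at 0.16.

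Casp14 lay lower in KO than in WT in EGF medium without overlap, at 6 to 12 against 14 to 55 counts, as 2.45% of all genes tested did. The WT library of 55 counts held most of that gap, since the other WT libraries had 14 each. Calm4 and Pla2g2f were at or under the floor of 3 counts in EGF medium in both genotypes, so no ratio was made.

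Batch 1 was low for several of the genes. Averaged over the 6 groups, Calm4 stood at 1.95 CPM in batch 1, 9.17 in batch 2 and 7.37 in batch 3. Krtdap stood at 2.88, 13.2 and 12.3 CPM, and Pla2g2f at 1.35, 4.04 and 3.83. Sbsn, at 88.4, 88.0 and 90.2 CPM, differed little between batches. In the fit with the replicate block, 5 of the 9 genes differed between batches (Krtdap, Calm4, Casp14, Pla2g2f and Asprv1; edgeR adjusted p from 5.84e-05 to 0.0359), as did 53.4% of all genes tested, so the share among the 9 is near that of all genes.

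Over the 18 libraries, each gene was set against the mean of the other 8 by Pearson's r of log2(CPM + 0.5), scaled per gene. The libraries share media and batches, so r describes these libraries only. They include the EGF-medium libraries whose low counts chose the genes, so likeness across media carries that choice and supports nothing further. Pla2g2f and Calm4 followed the others most closely (r = 0.978 and 0.968), then Asprv1 (0.926), Sbsn (0.902), Dmkn (0.899), Krtdap (0.897) and Casp14 (0.853). Tgm3 (0.722) and Tgm1 (0.529) followed least. After each group's mean was taken off, Pla2g2f, Tgm3 and Calm4 still varied with the rest (r = 0.859, 0.840 and 0.818), while Sbsn and Tgm1 did not (-0.103 and -0.126). Sbsn thus followed the media but not the differences among libraries of a group.

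Among 12714 other genes with at least 1 CPM on average, the 8 whose levels were most like the mean of the 9 were BC100530, Pou3f1, Dsg1a, Krt1, Krt10, Stfa3, Ly6g6c and Nrep, with r from 0.956 to 0.977 over 18 libraries. The mean of the 9 carries their choice by EGF-medium counts, and so does this ranking. Krt1 and Krt10 form the keratin pair of suprabasal epidermis, and Dsg1a is a desmosomal cadherin. Krt10 went from 409 ± 272 CPM in WT RW to 16.9 ± 17.5 in WT ERW and 4.16 ± 0.856 in WT EGF. Krt1 went from 313 ± 252 to 11.5 ± 15.7 and 0.236 ± 0.115 CPM. Pou3f1, a POU-domain transcription factor, went from 8.17 ± 4.17 to 0.912 ± 0.446 and 0.133 ± 0.172 CPM. With a pseudocount of 2, 7 of the 8 were again among the 8 most alike, and 5 were by Spearman's rho. BC100530 and Stfa3 are stefin A relatives with near-identical copies, as is Dsg1a among desmogleins, and short reads may be split between copies.

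**Figure D3:**
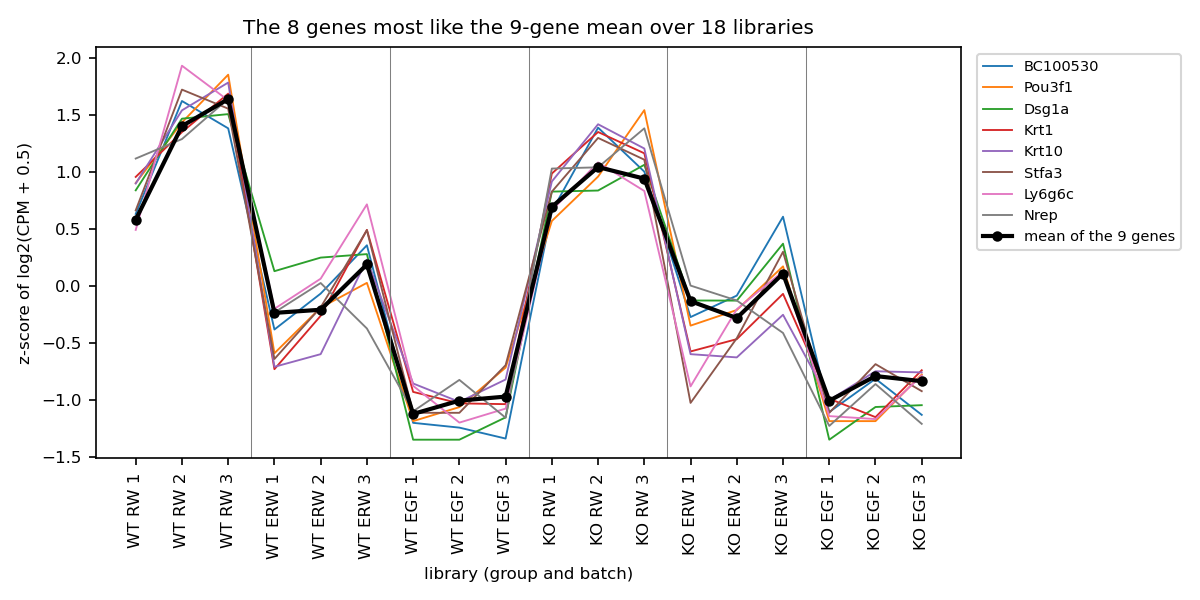
Level of the 8 most similar genes and the mean of the 9 genes (black) in each library, as z-scores of log2(CPM + 0.5) over the 18 libraries; KO is RasGRP1-/-. The 9-gene mean is high in RW, intermediate in ERW and low in EGF medium in both genotypes, while Stfa3 and Ly6g6c in KO ERW library 1 lie within the range of KO EGF, and library 1 of RW is the lowest of its group for the 9-gene mean.

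Other genes of cornification were read from lists written from general knowledge, in the same comparison of ERW with RW. Of 54 genes of the chromosome 3 epidermal differentiation complex, 25 were tested, and 13 of these passed the filter on low counts only through their RW libraries, so the list's counts carry that choice. Lor, the envelope protein loricrin, fell in WT (-1.96 ± 0.45, edgeR adjusted p = 0.0279), and S100a8, an inflammation-linked calcium-binding protein, rose in WT and KO (2.83 ± 0.47 and 2.86 ± 0.48, 0.00532 and 0.00431). The other 23 and 24 were not called. With the replicate block 8 and 7 of the 25 fell and 1 rose. The summed level of the list overlapped between media, at 97.6 to 322 CPM in WT RW, 121 to 277 in WT ERW and 117 to 160 in WT EGF. Much of it was Ivl and Sprr1a, which were not called. Ivl went from 49 ± 23.8 CPM in WT RW to 62.2 ± 21.1 in WT ERW, and Sprr1a from 81.4 ± 39.7 to 79.6 ± 42.3. Flg, the filaggrin that Casp14 and Asprv1 help process, stood at 16.1 ± 10.3 CPM in WT RW, 0.493 ± 0.855 in WT ERW and 0.0109 ± 0.0189 in WT EGF. Its log2 change in ERW was -5.06 ± 1.42 in WT. Flg was near 0 outside RW and passed the low-count filter only through RW, so this change is a description.

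Of 15 tested suprabasal keratins and desmosome genes, 4 fell in WT and 3 in KO, and 9 and 6 with the replicate block. They were Krt1 (-4.77 ± 1.02 in WT, -5.57 ± 1.07 in KO), Krt10 (-4.61 ± 0.71, -4.57 ± 0.72) and Dsc1 (-3.26 ± 0.57, -3.41 ± 0.59), with Dsg1a (-2.45 ± 0.56) in WT. The 23 tested lipid barrier genes, 3 of them tested only through RW, were mixed. Abca12, the lipid transporter of lamellar granules, fell in both genotypes (-1.86 ± 0.43 and -2.44 ± 0.44), Alox12e fell in KO (-2.97 ± 0.73), Slc27a4 rose in both (0.77 ± 0.12 and 0.67 ± 0.12) and Elovl1 rose in KO (0.46 ± 0.09). The rest, 21 in WT and 19 in KO, were not called. With the block 7 fell and 3 rose in WT, and 8 fell and 3 rose in KO. Of 27 tested proteases, inhibitors and deiminases, 5 of them tested only through RW, St14, a membrane protease, rose in both (0.48 ± 0.11 and 0.46 ± 0.11) and Padi3 rose in WT (2.44 ± 0.55), and none fell without the block. With the block 4 fell and 3 rose in WT, and 2 fell and 2 rose in KO. Klk7, a desquamation protease, stood at -3.32 ± 1.27 in WT (edgeR adjusted p = 0.249, and 0.00671 with the block). Klk10, of the same family, went the other way. It stood at 1.42 ± 0.79 in WT (edgeR adjusted p = 0.538, and 0.0236 with the block) and 1.81 ± 0.80 in KO (0.318, and 0.00653 with the block).

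Relatives of the 9 genes were too few to set against the share of all genes called (2.36% in WT and 2.57% in KO), and their values are a description. Of 5 tested transglutaminases, Tgm3 alone was called, in WT. Tgm2, the widely expressed member, stood at 0.18 ± 0.29, and Tgm5, another epidermal member, at -1.20 ± 0.32 (edgeR adjusted p = 0.0612, and 0.00764 with the block). Of 10 caspases Casp14 alone was called in either genotype, and the other 9 lay between -0.42 and 0.27 in WT. Of 9 tested phospholipases A2, 1 of them tested only through RW, Pla2g2f alone was called. Pla2g4e stood at -3.72 ± 1.11 in WT (edgeR adjusted p = 0.104, and 0.0346 with the block). Of 5 calmodulins Calm4 alone was called, while Calml3, its neighbour on chromosome 13, stood at -0.30 ± 0.33.

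Of 28 transcription factors of epidermal differentiation, 2 rose and 2 fell in WT, and 1 rose and 2 fell in KO. With the block 4 rose and 7 fell in WT, and 3 rose and 5 fell in KO. Hopx, a homeodomain protein of differentiating keratinocytes, fell in both (-2.28 ± 0.39 and -1.74 ± 0.38), and Grhl1 rose in both (0.63 ± 0.14 and 0.57 ± 0.14). Barx2 fell in WT (-1.17 ± 0.26), Tfap2c rose in WT (0.77 ± 0.17), and Trp63, the basal-layer regulator, fell in KO (-0.75 ± 0.15). Klf4 (-0.75 ± 0.86 in WT) and Zfp750 (-0.18 ± 0.32) were not called.

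Genes next to the 9 were read in the same comparison. Within 100 kb of the Sbsn, Dmkn and Krtdap stretch, 8 other genes were tested, and none was called in either genotype. Their WT log2 changes ran from -2.24 (Ffar2) to 1.94 (Atp4a), both genes of low level. Ffar2, the next gene after Krtdap, stood at -2.24 ± 0.97 in WT and -2.36 ± 0.98 in KO (edgeR adjusted p = 0.333 and 0.265), further from 0 than Krtdap, which was not called either. Tmem147, the most abundant of them at 67.6 CPM on average, stood at -0.16 ± 0.14 in WT and 0.01 ± 0.14 in KO. The nearest tested genes on each side of the other 6 members, 12 in all, were not called either, from -1.62 (Pla2g2d) to 0.11 (1600020E01Rik) in WT. With 2.36% of all genes called in WT and 2.57% in KO, 0 of 8 and 0 of 12 say nothing particular about these neighbours.

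**Figure D4:**
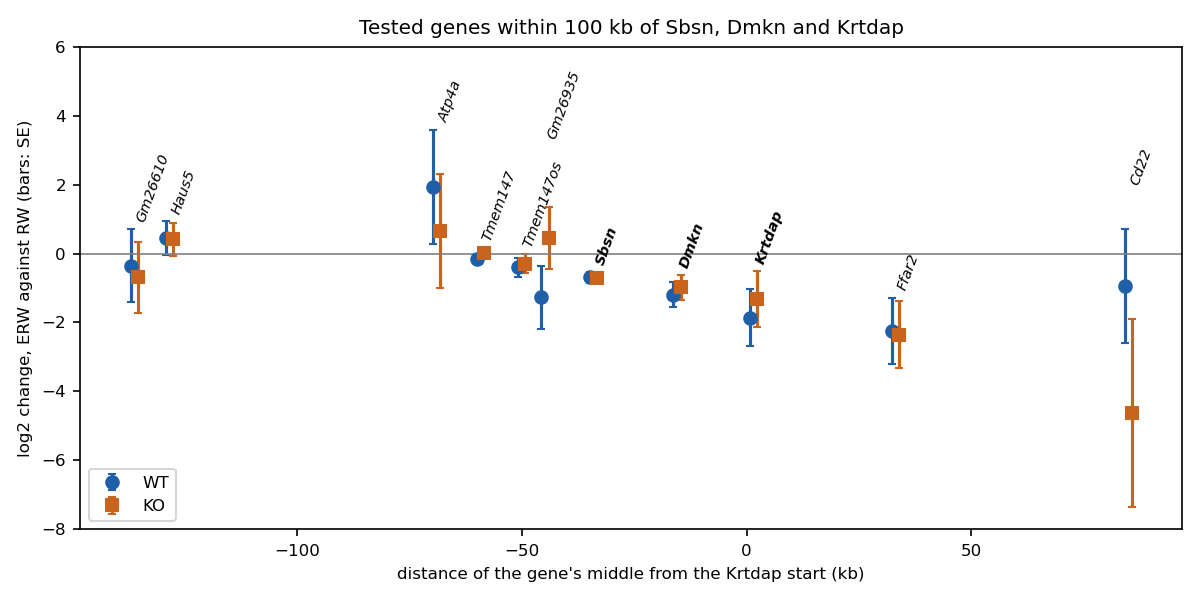
Log2 change of ERW against RW, with its standard error, for the genes tested within 100 kb of Sbsn, Dmkn and Krtdap (bold), by distance from the Krtdap start, in WT (circles) and KO (RasGRP1-/-, squares). None of the 8 neighbours was called; Sbsn was called in both genotypes, with the narrowest error of the 3 bold genes.

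Markers of other cell types moved between the same media, and more of them were called lower with the replicate block, under which 5.82% of all genes fell in WT and 6.65% in KO. Fibroblast markers fell in ERW against RW for 4 of 14 genes in WT and 5 in KO (9 and 8 with the block), and their summed level was 3470 to 7640 CPM in WT RW, 1910 to 3810 in WT ERW and 4400 to 7790 in WT EGF. Endothelial markers fell for 3 of 14 and 5 of 14, and for 11 and 12 with the block (416 to 555, 193 to 296 and 595 to 746 CPM in the same groups). Adipocyte markers summed to 554 to 1980, 98.3 to 532 and 616 to 1390 CPM, with 1 of 12 falling in both genotypes and 1 rising in WT, and 11 of 12 falling in both with the block. In WT these 3 sums were lower in ERW than in EGF medium. The 9 genes are not set beside that difference, because their EGF-medium counts chose them. Myeloid markers summed to 229 to 367, 383 to 667 and 706 to 1060 CPM, most of it Cd14, at 257, 526 and 787 CPM in group means. Cd14 was the 1 of 14 that rose in both genotypes. The other 13 had negative log2 changes in ERW against RW in both genotypes, and none of them was called, with or without the block.

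Markers of skin appendages were also read, since the organoids came from whole glands. The 20 hair follicle markers in the table summed to 19.2 to 27.4 CPM in WT RW, 15.1 to 21.1 in WT ERW and 11.7 to 15.5 in WT EGF. Of 16 hair keratins 6 had no count in any library. The 10 sebaceous markers summed to 447 to 706, 269 to 414 and 251 to 294 CPM, with Awat1 at 0 throughout. Most of that sum in WT RW was Krt79 and Plin2, at 372 and 133 CPM. In WT EGF, Krt79 was lower, at 24 CPM, and Plin2 higher, at 187 CPM. Krt79, which also marks the upper hair follicle, had 33155 counts in WT RW and 2147 in WT EGF. Of 6 melanocyte and Langerhans cell markers other than Epcam, 1 had no count in any library, and their sum was 1.13 to 2.28 CPM in WT RW and 0.535 to 1.02 in WT EGF. The part of any of these cell types in the levels of the 9 genes was not tested.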

How the data were processed

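RNA was sequenced from 18 mouse mammary organoid libraries (6 groups of 3). Per the submitters' processing notes, STAR, DESeq2 and GRCm38 were used; their versions and the counting and strand settings are not given in those notes. The authors deposited raw gene counts and a second table of normalized signal, the counts divided by a size factor per library (0.821 to 1.11; largest deviation from that ratio 0.0053% over genes above 1000 counts), which was used only for that check. The authors' variance-stabilized log2 values were not used. Per the file headers the table holds each gene's GC percent, with a median of 51.2% for the 9 genes and 46.3% over the genes tested. All tests used the deposited counts (24290097 to 31269899 per library).

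The 9 genes, the lists and the tests were chosen with earlier results of these data known. Genes named were the 9, their families, the 8 most alike, neighbours, and up to 4 called genes with the largest change per list. Some genes were named outside this rule, among them Flg, Ivl, Sprr1a, Klk7, Klk10, Klf4, Zfp750 and markers of cell types and skin appendages. edgeR 4.0.16 (limma 3.58.1, R 4.3.3) was run with TMM, filterByExpr (minimum count 10, minimum total 15; 17092 genes tested, all 9 genes among them, also without the RW libraries), 1 mean per group over all 18 libraries, the robust quasi-likelihood F-test, 2-sided, and Benjamini-Hochberg adjustment over all genes. Standard errors are the log2 change over the root of F. The script was tested on simulated data. KO against WT in EGF medium was fitted, but for the 9 genes it is described only. Alternatives were the replicate block, DESeq2 1.42.0 as test or for size factors, no filter, fewer libraries, and the likeness settings; the batch test and within-batch ratios were added after seeing the data.

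Library numbers are the labelled batch, so they pair samples across groups: same-numbered libraries' deviations from group means correlated (median r = 0.455, 0.265 to 0.642 over 45 pairs; other pairs -0.237). Exon lengths came from GENCODE on GRCm38. Protein sequences were not analysed here.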

Additional observations from a re-analysis of the deposited data

How the results depend on the processing

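All signs of the log2 changes of the 9 genes in ERW against RW were kept with the replicate block, DESeq2's size factors, DESeq2's test, no low-count filter and the fit of the compared libraries alone. The genes called over all genes, 404 in WT and 439 in KO, became 1835 and 2179 with the replicate block, 842 and 931 with DESeq2, and 216 and 35 on the compared libraries alone. In the last fit the calls among the 9 went from 5 to 0 in WT and from 4 to 2 in KO. KO against WT gave 5, 6 and 8 genes in RW, ERW and EGF, then 14, 14 and 12 with the replicate block, 0, 0 and 1 on the compared libraries alone, and 14 and 10 with DESeq2 in RW and ERW. Without 1 library or 1 batch, ERW against RW called 59 to 352 genes in WT and 85 to 520 in KO, and 0 to 4 of the 9 in each; none of the 9 was called without batch 2 or batch 3. KO against WT called 0 to 5 genes in RW, 0 to 6 in ERW and 0 to 4 in EGF. Without a filter on low counts, Calm4 lost its call in WT (edgeR adjusted p = 0.157) and KO (0.0917). The cause was not tested.

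Signs turned over the same omissions for values near 0: Dmkn in KO against WT in ERW (-0.34 to 0.27), Tgm1 in ERW against RW in KO (-0.31 to 0.20), and Casp14 (-0.81 to 0.22) and Tgm1 (-0.52 to 0.031) in KO against WT in RW. Within batches, Tgm1 in ERW against RW stood at 0.26 in batch 1 of WT, and at 0.052 and 0.10 in batches 1 and 3 of KO. Depth limits Calm4, Pla2g2f, Krtdap and Tgm3, which had at most 10 counts a library in WT EGF.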
